A study of Rattus norvegicus with 10 samples.

Results

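The genes that encode the subunits of the constitutive proteasome were examined in pancreatic islets (clusters of endocrine cells that release insulin, glucagon and other hormones) of rats on a cafeteria or a standard diet. Members were all genes whose symbol in the platform annotation begins with Psma, Psmb, Psmc or Psmd and a digit, on probesets that carry 1 symbol, without the immunoproteasome genes Psmb8, Psmb9 and Psmb10. This gave 34 of the 14217 genes with a probeset of their own: 13 of the core particle, 20 of the regulatory particle by symbol, and Psmc3ip. The rule takes in Psmc3ip by its symbol although it encodes a meiotic recombination cofactor and no proteasome subunit. The 20 include Psmd5, Psmd9 and Psmd10, which encode chaperones that help the particle to assemble and are not part of its finished form. The catalytic subunit gene Psmb6 was left out because its probeset carries 2 symbols. The rats were male Wistar animals aged 7 weeks, caged singly. The cafeteria group (5 arrays) ate a diet with 66% of its calories as fat for 10 days, and the standard group (5 arrays) ate chow with 8% of its calories as fat over the same time. Each sample is labelled a biological replicate, with no word on whether it came from 1 animal or a pool, so p-values measure the spread between these samples. Total RNA was read on Affymetrix Rat Genome 230 2.0 arrays, where a probeset is a group of short probes against 1 transcript. The labels conflict: for each of the 10 samples the diet characteristic names the other diet than the title, the source name and the description do. Groups here follow the titles; under the diet characteristic every sign below would turn and no size or p would move.

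The proteasome is the barrel-shaped protease that degrades ubiquitin-tagged proteins in the cytosol and nucleus. Its core particle stacks outer rings of alpha subunits (Psma genes), which gate the entrance, on inner rings of beta subunits (Psmb genes), some of which carry the proteolytic sites. The regulatory particle caps the barrel: a base with AAA ATPases (Psmc genes) and some non-ATPase subunits (Psmd genes) unfolds substrates. A lid of other Psmd subunits includes the deubiquitinase that removes the tag. In mammals the transcription factor NFE2L1, which recognises antioxidant response elements, raises the subunit genes together when proteasome activity is short. Beta cells make large amounts of secretory protein and send misfolded proinsulin to the proteasome.

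The promoter table of RefSeq (build GRCr8, 250 bases before to 50 after each gene's start) held 30 of the 34 members. The core of the antioxidant response element, TGACNNNGC, read on both strands, was present in 6 of these 30 windows, against 12.2% of the 27457 windows in the table. The CCAAT box, CCAAT on either strand, was present in 17 of 30 (56.7%), against 37.7% of all windows; it was in 9 of 12 core genes and in 7 of 17 regulatory genes. TATAAA was present in 4 of 30 (13.3%), against 14.3% of all. A match is a string of letters and was not tested for binding. The promoters printed are those of Psmb5, the chymotrypsin-like catalytic subunit, of Psmd7, the member with the lowest p, and of Psmd9, the member with the largest difference. Capitals mark TGACNNNGC or CCAAT on either strand, and no 2 of these matches overlap. Psmb5 (chr15:32047330-32047629, minus strand) has 1 response element core, which starts 60 bases before the gene's start. Psmd7 (chr19:52411267-52411566, minus strand) has none and has 2 CCAAT boxes, which start 237 and 123 bases before it. Psmd9 (chr12:39018215-39018514, minus strand) has 2 response element cores, 124 and 77 bases before the start, and 1 CCAAT box 42 bases before it.
Psmb5: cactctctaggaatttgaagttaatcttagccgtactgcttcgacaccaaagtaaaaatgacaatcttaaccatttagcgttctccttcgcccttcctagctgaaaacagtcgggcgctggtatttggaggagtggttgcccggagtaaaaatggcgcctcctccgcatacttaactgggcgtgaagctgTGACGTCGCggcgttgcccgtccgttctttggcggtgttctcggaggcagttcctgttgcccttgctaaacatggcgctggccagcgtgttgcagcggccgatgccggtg
Psmd7: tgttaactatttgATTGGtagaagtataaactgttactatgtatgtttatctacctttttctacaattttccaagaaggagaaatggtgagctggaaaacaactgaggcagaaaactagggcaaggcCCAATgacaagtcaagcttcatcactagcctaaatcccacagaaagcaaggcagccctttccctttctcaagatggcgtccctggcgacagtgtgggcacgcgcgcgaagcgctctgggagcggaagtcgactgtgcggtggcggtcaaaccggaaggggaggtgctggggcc
Psmd9: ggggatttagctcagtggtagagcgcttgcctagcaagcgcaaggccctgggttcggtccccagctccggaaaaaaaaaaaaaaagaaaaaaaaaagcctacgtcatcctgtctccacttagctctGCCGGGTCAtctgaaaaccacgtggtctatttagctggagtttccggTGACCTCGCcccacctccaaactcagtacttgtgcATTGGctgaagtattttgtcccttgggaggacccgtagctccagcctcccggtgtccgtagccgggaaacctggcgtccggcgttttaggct

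No proteasome gene passed the test for a diet difference, and all 34 differences were small. Signals were compared as log2(signal + 14.15), where 14.15 is the 10th percentile of all values, with limma, and p-values were adjusted over all 18625 probesets tested by the Benjamini-Hochberg method at a threshold of 0.05. All 34 members were bright enough to be tested. The number called was 0 of 34 members, against 0 of 18625 probesets (0%) and 0 of the 10300 genes tested on their brightest probeset (0%); the lowest adjusted p of a member was 0.418. At an unadjusted p under 0.05 there was 1 member, Psmd7, which was higher, against 5.02% of all genes tested that were higher, 5.26% that were lower and 10.3% in either direction. The log2 differences ran from −0.13 for Psmd10 to 0.22 for Psmd9. All 34 confidence intervals (95%) lay within 0.5 of 0 on the log2 scale, the widest bounds being −0.365 for Psmd10 and 0.485 for Psmd9, which are 0.777-fold and 1.40-fold.

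More members were higher than lower in the cafeteria group, 26 against 8. Of all genes tested, 48.7% were higher. The median difference was 0.024 for the 13 core genes and 0.075 for the 20 regulatory genes, against −0.0044 for all genes tested. The split around 0 depended on the scaling. With each array centred on its median, 18 of 34 members (52.9%) were higher, against 39.7% of all genes. The core median was then −0.014, against −0.042 for all genes. Members above the median of all genes numbered 27 of 34, and 20 to 30 under the alternatives other than this centring. The centring cannot change that count, because it moves all differences by the same amount. The number of members higher was 23 of 34 without cafeteria replicate 5 (67.6%, against 47.9% of all genes). It was 21 of 34 without standard replicate 3 (61.8%, against 48.6% of all genes).

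**Figure D1:**
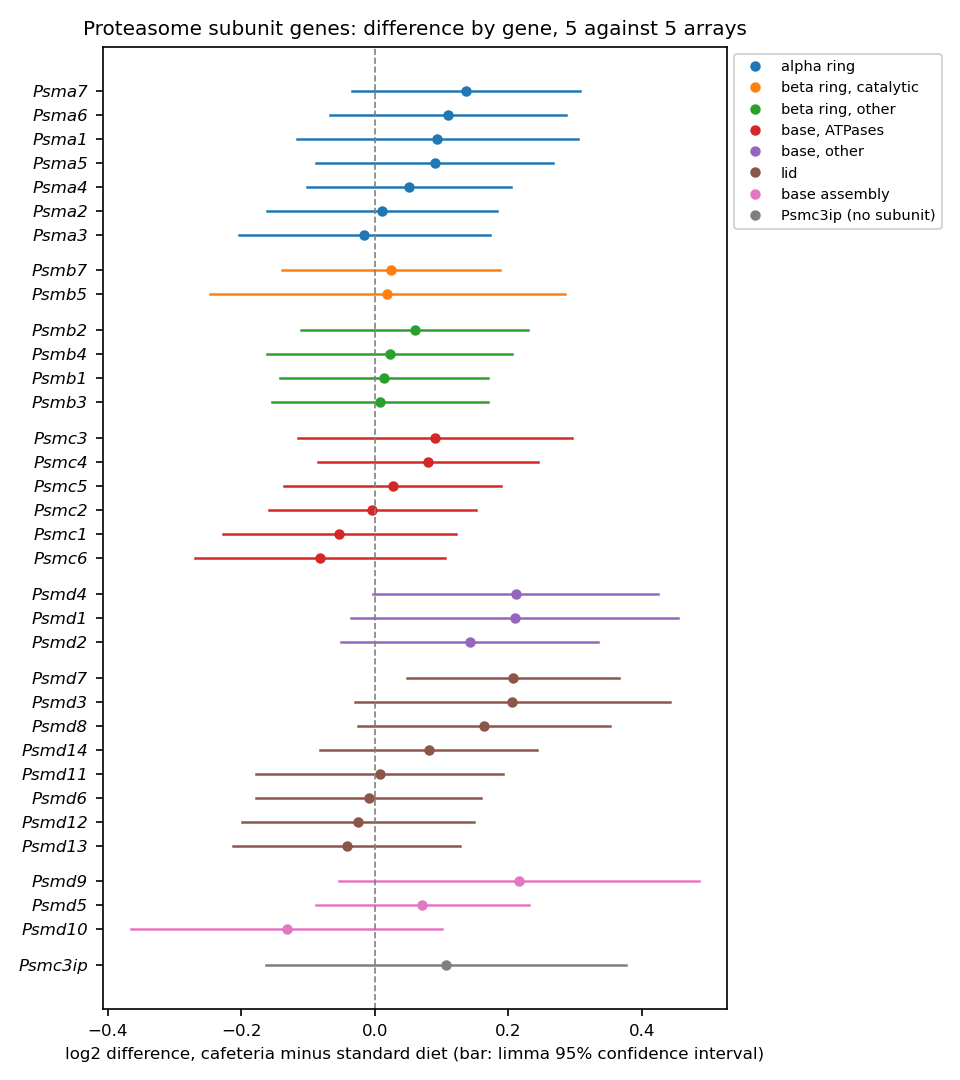
Log2 difference, cafeteria minus standard diet, for each of the 34 members (points), with limma's 95% confidence interval (bars) over 5 arrays a group; colours give the part of the proteasome. The interval of Psmd7, from 0.047 to 0.365, is the only one that leaves out 0.

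The alpha subunit genes, which form the gate of the core particle, had 6 of 7 members higher in the cafeteria group, with a median log2 difference of 0.089 and 0 members at an unadjusted p under 0.05. The largest difference was that of Psma7, at a signal of 3311 ± 247 in the cafeteria group and 3007 ± 146 in the standard group (SD, n = 5 each), a log2 difference of 0.14 (SE 0.078). Psma7 read 3241, 2961, 3269, 3608 and 3477 in cafeteria replicates 1 to 5, against 3109, 3029, 3092, 3055 and 2753 in standard replicates 1 to 5. Cafeteria replicate 2 lay below 4 of the standard arrays, so the groups overlapped. Psma6 differed by 0.11 (SE 0.080), Psma1 by 0.094 (SE 0.096) and Psma5 by 0.089 (SE 0.081). Psma4 and Psma2 differed by 0.051 and 0.010, and Psma3 by −0.016. The 7 intervals reached from 0.869-fold to 1.24-fold.

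The beta subunit genes differed little. All 6 that were measured were higher in the cafeteria group, with a median log2 difference of 0.0205, and lay between 0.0076 (Psmb3) and 0.059 (Psmb2), with intervals from 0.843-fold to 1.22-fold. Psmb5 encodes the chymotrypsin-like subunit, the main target of the drug bortezomib, and its promoter is printed above. It read 4011, 4192, 3853, 4186 and 6063 in the cafeteria arrays, against 4255, 4570, 4016, 4637 and 4255 in the standard arrays. Cafeteria replicate 5 was far above the other 9 arrays, and the remaining 4 cafeteria arrays all lay below the standard median. The log2 difference was 0.019 (SE 0.121, adjusted p = 0.966 by limma) with all arrays and −0.097 without cafeteria replicate 5 (unadjusted p = 0.219). Psmb7, the trypsin-like subunit, read 2911, 2884, 2609, 2938 and 3061 in the cafeteria arrays, against 2892, 2866, 2613, 3022 and 2769 in the standard arrays. The ranges were nearly the same, and the difference was 0.024 (SE 0.074), with an interval from 0.908-fold to 1.14-fold. The subunits without a proteolytic site, Psmb1, Psmb2, Psmb3 and Psmb4, averaged 4665 ± 219, 4301 ± 259, 3169 ± 184 and 7492 ± 711 in the cafeteria group, against 4621 ± 236, 4127 ± 268, 3151 ± 169 and 7362 ± 400 in the standard group (SD, n = 5 each).

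Among the genes of the base ATPases, the ring that unfolds substrates and threads them into the core, 3 were higher and 3 lower in the cafeteria group, with a median log2 difference of 0.011. Psmc3 differed by 0.090 (SE 0.093), Psmc4 by 0.080 (SE 0.075), Psmc5 by 0.027 (SE 0.074) and Psmc2 by −0.0036 (SE 0.070). Without cafeteria replicate 5, Psmc3 differed by 0.025, Psmc4 by 0.043, Psmc5 by 0.0011 and Psmc2 by −0.034. Psmc1 read 1882, 1957, 1810, 1963 and 2283 in the cafeteria arrays, against 2132, 2044, 1927, 2049 and 2092 in the standard arrays. Cafeteria replicate 5 was the highest of all 10, while each of the other 4 cafeteria arrays lay below at least 4 of the 5 standard ones. The difference was −0.053 (SE 0.079) with all arrays, −0.105 without cafeteria replicate 5 and −0.022 without cafeteria replicate 3. Psmc6 read 1297, 1468, 1483, 1459 and 1249 in the cafeteria arrays, against 1625, 1563, 1377, 1372 and 1431 in the standard arrays. The groups overlapped, and the difference was −0.082 (SE 0.085) with all arrays, −0.045 without cafeteria replicate 5 and −0.0465 without standard replicate 1. The 3 probesets of Psmc6 did not share a direction: the other two differed by 0.17 (SE 0.121) and −0.10 (SE 0.127).

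The other base subunit genes were all 3 higher in the cafeteria group, with a median log2 difference of 0.21 and 0 at an unadjusted p under 0.05. Psmd4, a receptor for ubiquitin chains, read 1809, 1776, 1956, 1981 and 2239 in the cafeteria arrays, against 1858, 1893, 1483, 1594 and 1606 in the standard arrays. Standard replicates 1 and 2 lay above cafeteria replicates 1 and 2, so the groups overlapped. The difference was 0.21 (SE 0.097, unadjusted p = 0.0519, adjusted p = 0.480 by limma), a 1.16-fold level. Psmd1, a large scaffold subunit, read 1120, 1127, 1024, 1104 and 1558 in the cafeteria arrays, against 1027, 981, 960, 988 and 1117 in the standard arrays. Cafeteria replicates 1, 2 and 5 lay above every standard array, replicate 5 by far, and replicates 3 and 4 lay within the standard range. The difference was 0.21 (SE 0.111) with all arrays and 0.11 without cafeteria replicate 5. Psmd2, the other scaffold subunit, averaged 4020 ± 166 in the cafeteria group and 3657 ± 391 in the standard group (SD, n = 5 each), a difference of 0.14 (SE 0.088) with all arrays and 0.0835 without standard replicate 1.

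In the lid, which holds the deubiquitinase, 5 of 8 genes were higher in the cafeteria group, with a median log2 difference of 0.044. Psmd7, a structural partner of the deubiquitinase, read 2332, 2225, 2028, 2029 and 2114 in the cafeteria arrays, against 1865, 1928, 1775, 1941 and 1773 in the standard arrays. Every cafeteria array lay above every standard array, which held for 1 of 34 members; over all genes tested, 1.06% separated in this direction and 1.72% in the other. The difference was 0.21 (SE 0.072, unadjusted p = 0.0155, adjusted p = 0.418 by limma), a 1.15-fold level with an interval from 1.03-fold to 1.29-fold. The dimmer probeset of Psmd7 differed by 0.22 (SE 0.106), and there the groups overlapped. Psmd14, the deubiquitinase itself, read 2450, 2356, 2208, 2407 and 2332 in the cafeteria arrays, against 2336, 2388, 2037, 2097 and 2264 in the standard arrays. The upper part of the standard range overlapped the cafeteria values. Its difference was 0.081 (SE 0.074) with all arrays and 0.050 without standard replicate 3, and its other two probesets differed by 0.081 and 0.28 (SE 0.105 and 0.156). Psmd3 and Psmd8 differed by 0.21 (SE 0.107) and 0.16 (SE 0.086). The other 4 lid genes, Psmd6, Psmd11, Psmd12 and Psmd13, lay between −0.042 and 0.0074. The 2 brighter probesets of Psmd11 differed in sign, at 0.0074 (SE 0.084) and −0.14 (SE 0.086).

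**Figure D2:**
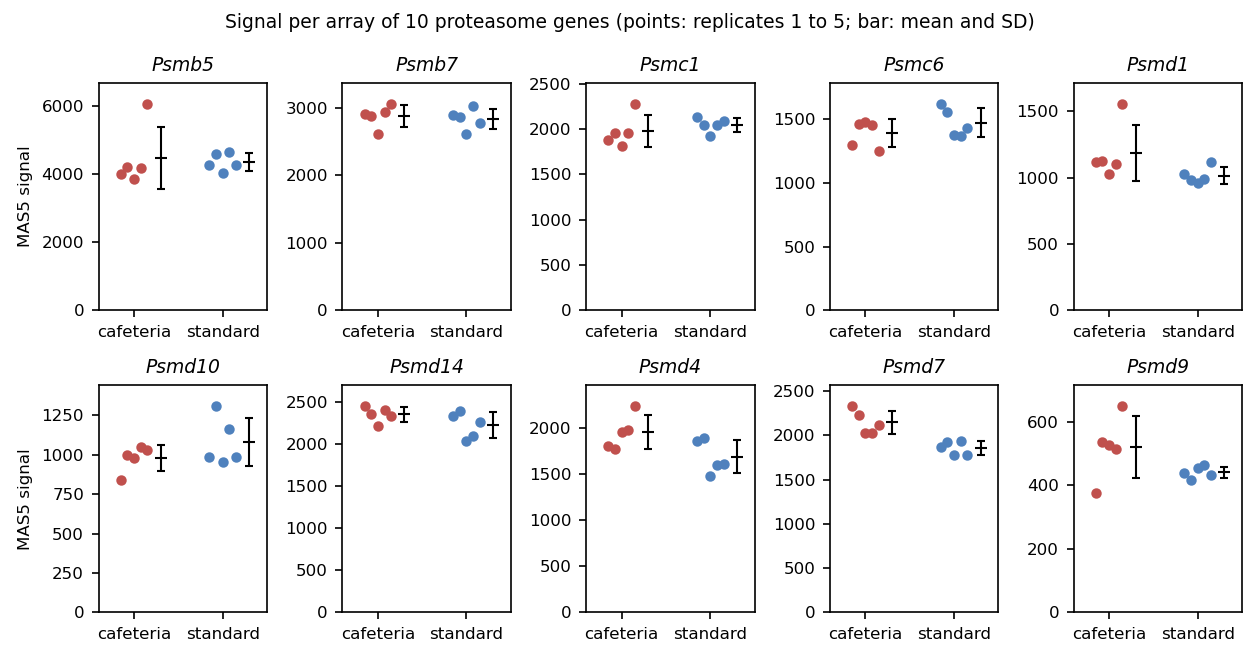
Signal on each array (points, replicates 1 to 5 from left to right) with mean and SD (bars) for 10 members, cafeteria left of standard; each vertical axis starts at 0. All 5 cafeteria arrays lie above all 5 standard arrays for Psmd7 alone among these, and cafeteria replicate 5 stands apart for Psmb5 at 6063 and Psmd1 at 1558.

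The chaperones that help the base to assemble and are not part of the finished particle gave both ends of the range. Psmd9 read 376, 537, 528, 514 and 650 in the cafeteria arrays, against 438, 418, 453, 463 and 431 in the standard arrays. Cafeteria replicate 1 was the lowest of all 10 arrays and the other 4 cafeteria arrays were above every standard one. The difference was 0.22 (SE 0.123, adjusted p = 0.537 by limma) with all arrays, 0.32 without cafeteria replicate 1 and 0.13 without cafeteria replicate 5; a dimmer probeset differed by 0.069. Psmd10, also called gankyrin, read 840, 999, 977, 1047 and 1027 in the cafeteria arrays, against 982, 1309, 956, 1160 and 984 in the standard arrays. The high standard values came from replicates 2 and 4, the rest overlapped the cafeteria values, and the difference was −0.13 (SE 0.106). Without standard replicate 2 it was −0.060. Psmd5 differed by 0.071 (SE 0.072). Psmc3ip, the member taken in by its symbol alone, was the dimmest of the 34, at 274 ± 44.7 in the cafeteria group and 252 ± 28.7 in the standard group (SD, n = 5 each). It differed by 0.11 (SE 0.123).

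Most members had a bright signal that varied little within a group. Their mean log2 signals lay between percentiles 59.5 and 98.7 of the 31042 probesets that are not controls, with 26 of 34 above the 90th. Each member was ranked by its brightest probeset, while the 31042 also hold the dimmer probesets of these and other genes. The choice of probeset may thus account for some of the high ranks, which was not tested. The SD between arrays of a group had a median of 0.0985 on the log2 scale over the members, against 0.172 over all genes tested. It was above that value for Psmb5 (0.195), Psmd1 (0.175), Psmd9 (0.199) and Psmc3ip (0.199). Part of that may be brightness alone, which was not tested. In the RefSeq gene table, 14 of 34 members have pseudogenes or like copies named after them, up to 10 for Psmb3 and 5 for Psma6, and whether the probes also match these was not tested. Of the 45 member probesets, 41 were bright enough to be tested, and 7 members had more than 1 probeset.

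Some arrays were high or low for many members at once. Cafeteria replicate 5 gave the highest value of the 10 arrays for 15 of 34 members (44.1%), and for 19.6% of all genes tested. Standard replicate 3 gave the lowest value for 9 members (26.5%) and standard replicate 5 for 7 (20.6%), against 11.7% and 10.3% of all genes. The mean log2 signal of the regulatory genes was 10.83, 10.91, 10.85, 10.93 and 11.01 in cafeteria replicates 1 to 5, against 10.86, 10.88, 10.76, 10.86 and 10.83 in standard replicates 1 to 5. Cafeteria replicate 5 was the highest and standard replicate 3 the lowest of these, and the other arrays of both groups were mixed. The core genes averaged 11.77, 11.77, 11.72, 11.80 and 11.86 in the cafeteria arrays, against 11.76, 11.81, 11.67, 11.76 and 11.67 in the standard arrays. Again cafeteria replicate 5 was at the top, and standard replicates 3 and 5 were at the bottom. Within the core, cafeteria replicate 5 was the highest array for the beta genes, at 12.235. It was not for the alpha genes, at 11.53 against 11.59 in cafeteria replicate 4. Without cafeteria replicate 5 the median difference of the regulatory genes was 0.034, against 0.075 with all arrays. That of the core genes was 0.029, against 0.024 with all arrays.

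**Figure D3:**
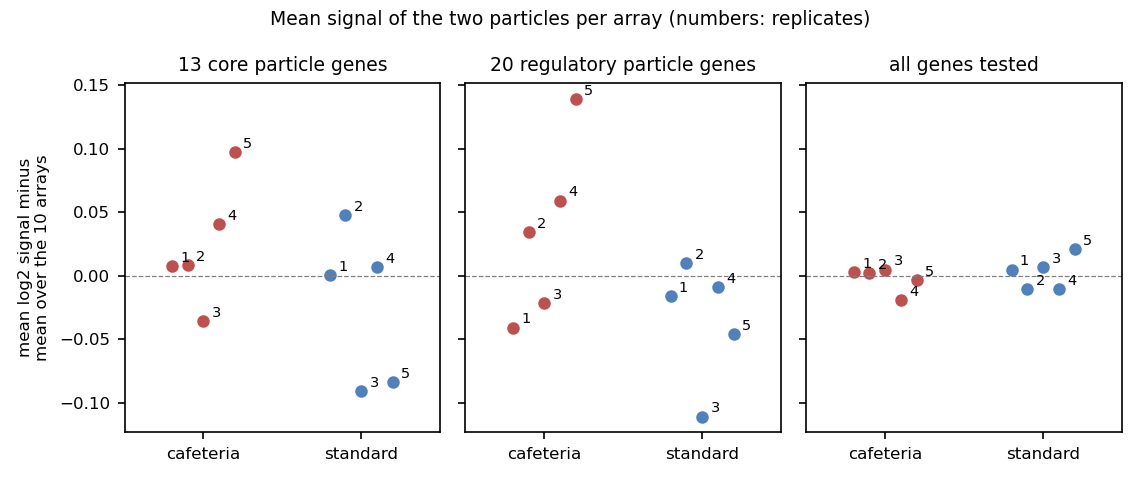
Mean log2 signal per array, as the deviation from the mean over the 10 arrays, for the 13 core genes, the 20 regulatory genes and all genes tested (one vertical scale; numbers are replicates; cafeteria left of standard). Cafeteria replicate 5 is highest in both proteasome panels. The panel of all genes is nearly flat, which a common scaling and a mean over 10300 genes would largely give in any case, so it is no contrast.

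**Figure D4:**
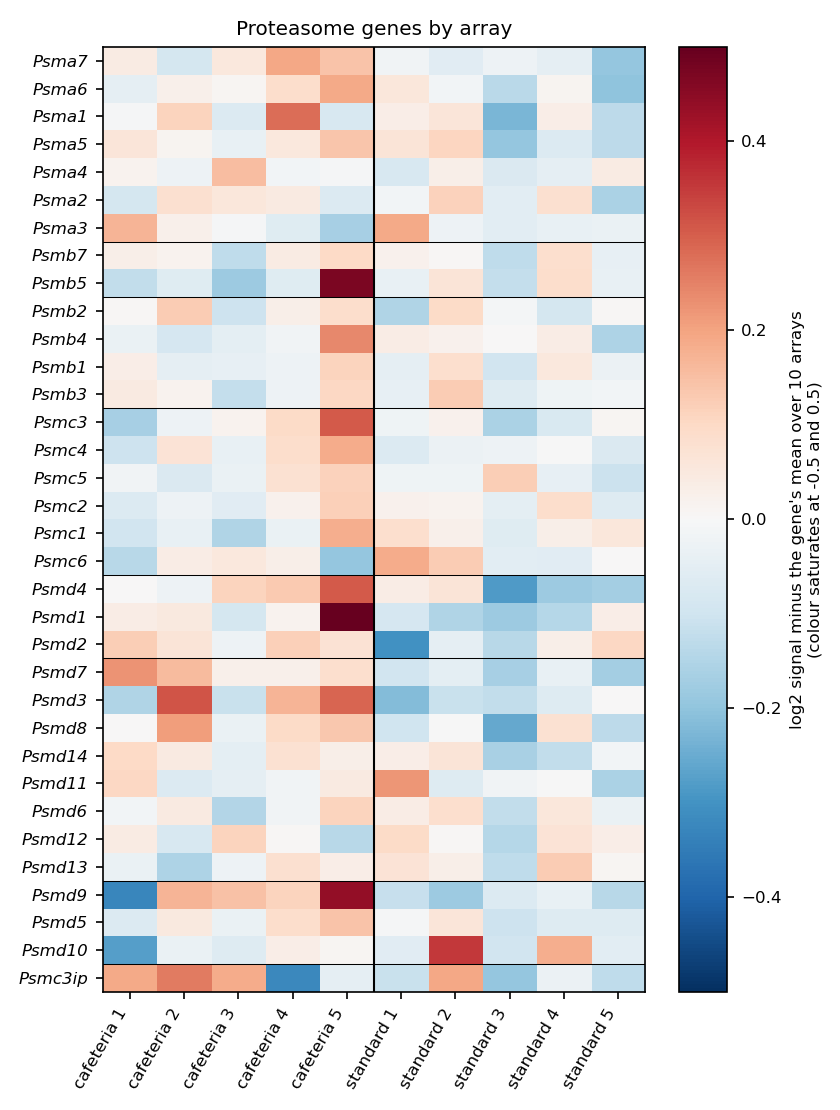
Log2 signal of each member on each array, minus the member's mean over the 10 arrays; rows are grouped by part of the proteasome in the order of the plot of differences, and cafeteria arrays stand left of the black line. The column of cafeteria replicate 5 is red for most rows and holds the highest value for 15 of the 34.

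Other measures differed between the arrays as well. The labelled tissue matched its defining genes: Ins1, Ins2, Gcg, Sst, Ppy, Iapp, Pdx1 and Chga were all tested and bright, and 7 of these 8, all but Pdx1, were higher in the cafeteria group. Their summed signal was 171950 to 222310 with the cafeteria diet, highest in replicate 5, and 139330 to 181640 with the standard diet, lowest in replicate 5. The part of this in the proteasome values was not tested. Of 35 immune cell markers listed, 26 were tested and 25 of these were lower in the cafeteria group, with 3 at an unadjusted p under 0.05 by limma. Their summed signal spanned 9432 to 30210 with the cafeteria diet (mean 14740) and 9715 to 31852 with the standard diet (mean 21140). Cafeteria replicate 3 gave the 30210, and the rest of its group read at most 12906. Standard replicate 2 gave the 9715, and the rest of its group read at least 16628. In bulk RNA, fewer cells of a type and less RNA per cell cannot be told apart. With the mean of the immune markers as a covariate, 20 of 34 members were higher (58.8%, against 49.3% of all genes) and the core and regulatory medians were −0.00345 and 0.042. The ratio of the 3 prime to the 5 prime GAPDH control is a measure of RNA integrity. It was 0.964 to 1.11 with the cafeteria diet (mean 1.01) and 1.00 to 1.26 with the standard diet (mean 1.16). Every standard array but replicate 2 lay above every cafeteria array, so the ratio largely went with diet. With that ratio as a covariate 21 of 34 members were higher (61.8%, against 49.1% of all genes) and the medians were −0.00047 and 0.077. Of 24 genes listed as acinar (digestive enzyme cell) markers, 20 were tested and 15 of these were lower in the cafeteria group. The 15 include Cpa3 (−0.14), which is a mast cell gene. At an unadjusted p under 0.05 by limma, 4 of the 20 were lower and 2 higher. The summed signal of the 20 spanned 5502 to 26797 with the cafeteria diet and 11630 to 26987 with the standard diet. With the mean of the acinar markers as a covariate 27 of 34 members were higher (79.4%, against 49% of all genes). In that fit 4 members had an unadjusted p under 0.05 by limma, and the medians were 0.043 and 0.088. No member was called in any of these 3 fits.

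Genes that work with the proteasome were read from lists by role, and 0 of them passed the adjusted test. For the chaperones that assemble the core, 4 of 5 were higher in the cafeteria group, with a median log2 difference of 0.155. Psmg2 averaged 1145 ± 163 in the cafeteria group and 941 ± 91.4 in the standard group (SD, n = 5 each), a difference of 0.27 (SE 0.111, unadjusted p = 0.0311). Psmg4 and Psmg3 differed by 0.18 (SE 0.085) and 0.15 (SE 0.108). Of the alternative caps and the inhibitor, 3 of 4 tested were higher: Psme2 differed by 0.15 (SE 0.078), the inhibitor gene Psmf1 by 0.12 (SE 0.125) and Psme1 by −0.088 (SE 0.082). The small lid subunit Sem1, whose symbol lies outside the rule, read lower in every cafeteria array (3984 to 4242) than in every standard array (4267 to 4742). Over all genes tested, 1.72% separated in this direction. The difference of Sem1 was −0.12 (SE 0.065). The ubiquitin receptor Adrm1 differed by 0.16 (SE 0.143).

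The immunoproteasome subunits, which replace the catalytic beta subunits in immune cells and after interferon, had lower values for 2 of 3 genes. Psmb9 read 363, 389, 397, 421 and 344 in the cafeteria arrays, against 482, 476, 410, 554 and 507 in the standard arrays. Only cafeteria replicate 4 and standard replicate 3 crossed. The difference was −0.33 (SE 0.093, unadjusted p = 0.00462, adjusted p = 0.398 by limma). Psmb8 differed by −0.29 (SE 0.259) and Psmb10 by 0.090 (SE 0.139). The immune markers described above were lower in the same group, and their part in this difference was not tested.

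Upstream of the proteasome, the unfoldase gene Vcp (p97), which extracts proteins from membranes and complexes, read 8662, 8427, 8695, 9437 and 9215 in the cafeteria arrays, against 5542, 7165, 6466, 7766 and 7281 in the standard arrays. All cafeteria arrays lay above all standard arrays, which held for 1.06% of all genes tested. The difference was 0.38 (SE 0.097, unadjusted p = 0.00219, adjusted p = 0.398 by limma), a 1.31-fold level. Of the 8 genes of p97 and its cofactors that were tested 5 were higher, and Ubxn4 and Nsfl1c differed by 0.15 (SE 0.078) and 0.12 (SE 0.087). In the list of transcription factors and NFE2L1-processing enzymes, 4 of 6 were lower. Ngly1, the glycanase that processes NFE2L1, read 2227, 2003, 2150, 2127 and 2140 in the cafeteria arrays, against 2478, 2437, 2376, 2343 and 2356 in the standard arrays. All cafeteria arrays lay below all standard arrays, which held for 1.72% of all genes tested. The difference was −0.17 (SE 0.065, unadjusted p = 0.0229, adjusted p = 0.431 by limma). Nfe2l1 itself differed by −0.20 (SE 0.108) and Stat3 by 0.26 (SE 0.175).

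Of the ubiquitin shuttle genes, which carry tagged proteins to the regulatory particle, 6 of 7 tested were lower, with a median difference of −0.071 and none at an unadjusted p under 0.05. Ddi2, a shuttle and the protease that cleaves NFE2L1, differed by −0.13 (SE 0.104), Nub1 by −0.094 (SE 0.084) and Ubqln2 by −0.087 (SE 0.071). The ubiquitin-activating enzyme genes Uba1 and Uba6 differed by 0.18 (SE 0.117) and −0.19 (SE 0.089). Among 6 enzymes and adaptors that bind the proteasome, 3 were higher and 3 lower; Txnl1 differed by 0.18 (SE 0.083, unadjusted p = 0.0497), Ube3c by 0.081 (SE 0.091) and Ecpas by −0.073 (SE 0.074).

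**Figure D5:**
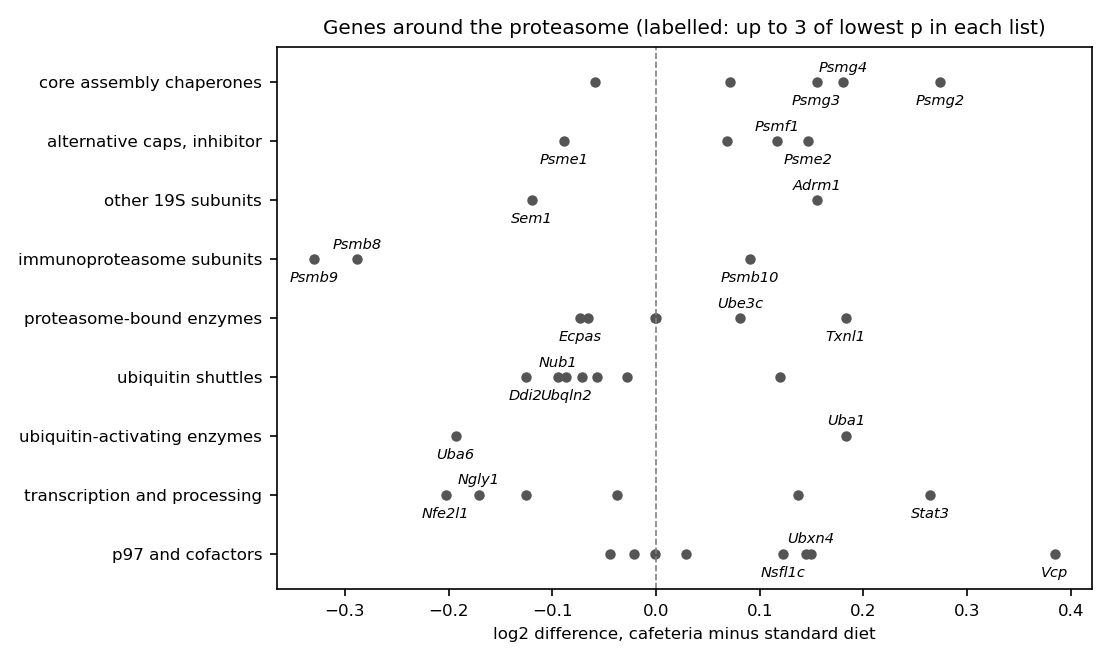
Log2 difference, cafeteria minus standard diet, for each tested gene (points) in 9 lists of genes that work with the proteasome; up to 3 genes of lowest p in each list are labelled. Vcp is farthest to the right at 0.38 and Psmb9 farthest to the left at −0.33, and none passed the adjusted test.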

How the data were processed

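The deposited table holds linear intensity values for 31099 probesets on 10 arrays; per the submitters' processing notes the authors used MAS5, Affymetrix's probe summary, with no version given. Every array had the same mean, 500.1 to 500.2, once the top and bottom 2% of values were dropped, as after scaling to a common target. The table gives no detection calls, no genome build and no batch, and the number of arrays limits the precision. Values were taken as log2(intensity + 14.15), so folds are on that scale. The filter kept the 18625 probesets whose average lay over the 40th percentile (of 31042 without controls). Cafeteria was compared with standard in R 4.3.3 by lmFit and eBayes of limma 3.58.1, with Benjamini-Hochberg adjustment over all of them. The fit was tested on simulated data. Each gene is given by its brightest probeset; symbols are those of the platform annotation, which gave 1 symbol for 20826 probesets and several for 436 (these and unnamed ones are not reported by gene), and all 34 member IDs were found in the RefSeq table of GRCr8.

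Per-array values are given for the catalytic subunits, Psmd14, members with an unadjusted p under 0.05, the 3 members with the largest difference in each direction and, after their values were seen, Psma7, Psmb9, Vcp and Ngly1; up to 3 genes of lowest p are named from each list. Members and lists were chosen with earlier results of these data known. Alternatives were other pseudocounts, filters, scalings, variance models and covariates, a block for the replicate number, weights for arrays, other choices of probeset, and leaving out each array.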

Additional observations from a re-analysis of the deposited data

Results flagged for a closer look

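In 122 sets of 5 arrays (34 members, 25 pathway genes and the means of the core and regulatory genes, each diet apart), 10 met Dixon's criterion for a single array that stands off from the rest. Chance alone gives about 1 in 20 such sets, or 6.1 of 122. Values are log2(signal + 14.15). Cafeteria replicate 5 was highest for Psmb5 at 12.57 (others 11.92 to 12.04), Psmb4 at 13.10 (others 12.77 to 12.84) and Psmd1 at 10.62 (others 10.02 to 10.16). Cafeteria replicate 3 was highest for Psma4 at 11.18 (others 11.00 to 11.04) and lowest for Ddi2 at 9.41 (others 9.79 to 9.93). Standard replicate 5 was lowest for Psma7 at 11.43 (others 11.57 to 11.61) and Psmb4 at 12.70 (others 12.86 to 12.90). Standard replicate 1 was highest for Psma3 at 10.84 (others 10.59 to 10.62). Standard replicate 2 was highest for Psmb3 at 11.76 (others 11.57 to 11.62) and lowest for Ube3c at 10.76 (others 10.85 to 10.87).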

How the results depend on the processing

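Under 25 alternatives, including 10 with 1 array removed, limma called 0 members each time. Over all probesets the count, 0 with the main setting, was 1 with the acinar marker mean as a covariate (Amy2a3, itself in that mean) and 0 to 1 when an array was left out (Emp1 without standard replicate 2). The count of members at an unadjusted p under 0.05, 1 with the main setting, ran from 0 to 4. The number of members higher ran from 18 (median centring) to 28. The core median ran from −0.014 to 0.059 and the regulatory median from 0.034 to 0.093. Median centring moved the median of all genes to −0.042. Of 250 values of the 10 genes in the signal plot, 11 changed sign. Psmb5 was −0.0040 with quantile normalization, −0.019 with median centring, −0.048 with array weights, −0.028 with the immune covariate and −0.000782 as the mean of its probesets, and −0.097 to 0.066 when an array was left out. Psmb7 was −0.014 with median centring and −0.021 with the immune covariate, and −0.0046 to 0.059 when an array was left out. Psmc1 was 0.023 with the GAPDH covariate. Median centring takes the same value off every gene on an array, so it moved all differences by the same amount. For the other settings the cause was not tested. Of 599 values of the other 24 members, 57 changed sign. The deviations of same-numbered arrays from their group means correlated at r of 0.0033, 0.30, 0.25, −0.0017 and 0.14 for numbers 1 to 5. Correlations between arrays of different numbers were not set beside these, so they cannot decide whether the numbers pair the samples. The main fit took no pairing. With the replicate block 0 probesets were called, 12.6% had an unadjusted p under 0.05 against 10.4% without it, and 2 members did.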
